A study of Mus musculus with 8 samples.

Results

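The comparison described here sets the livers of mice raised on a breeder diet and then a high fat diet against the livers of mice kept on a low fat diet throughout. It rests on 4 of the 8 arrays of the series, taken by their titles: 2 breeder-high fat arrays (BD_HF) and 2 low fat-low fat arrays (LF_LF). All animals were males of the inbred C57Bl/6J strain, aged 14 weeks, and livers were taken after a 4 h fast. The dams of the BD_HF mice stayed on the Harlan Teklad breeder diet, and the offspring were weaned onto a high fat diet (D12492) with 60% of energy from fat. The dams of the LF_LF mice were moved at embryonic day 10.5 from the breeder diet to a defined diet with sufficient vitamin A and 12% of energy from fat (TD.07291), which the offspring also ate after weaning. Both the diet of the dam and the diet after weaning therefore differ between the groups, and their parts cannot be told apart. The other 4 arrays are of mice from low fat dams weaned onto the high fat diet (LF_HF) and of mice on a vitamin A deficient low fat diet (TD.07655) in both periods (VAD_VAD). They are given below for description alone.

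As background, the adult liver is built mostly of hepatocytes, which divide rarely, make plasma proteins and bile acids, and clear drugs and steroids. Their enzymes differ along the lobule, with glutamine synthesis and many cytochrome P450 enzymes near the central vein and urea and glucose production near the portal tract. In male rodents, pulses of growth hormone acting through STAT5B keep up a set of male-biased liver genes. In an injured or fat-laden liver, dividing cells, stellate cells that make collagen, bile duct-like cells and macrophages that take up lipid become more frequent.

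Signal is given as log2 of the processed intensity relative to the 75th percentile of the same array, so a value of 0 equals that percentile, and differences are BD_HF minus LF_LF with their standard error (SE, n = 2 arrays per group). The test is limma on the 4 arrays, with Benjamini-Hochberg adjustment over all genes and a threshold of 0.05. Whether the 2 samples of a group came from separate animals is not stated in the labels, and the p-values speak only of how these samples varied. In whole tissue, fewer cells of a type and less RNA per cell cannot be told apart. Where a gene was not well above background on either array of a group, its fold is a bound. The dim group is then set to the lowest signal well above background on each array, and the fold is written as at least that many.

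Of 16882 genes tested, 2779 (16.5%) differed between the groups. In BD_HF liver 961 genes (5.69%) were higher and 1818 (10.8%) were lower, and the median difference over all genes was 0.07. The counts of list members below are to be read beside these shares. At least 4-fold differences were called for 128 higher and 395 lower genes. Among the lower genes, 442 were not well above background on either BD_HF array, and 44 of the higher genes were not on either LF_LF array. Such genes were tested only through their signal in the other group, so the filter largely set their direction. The groups did not overlap for any of the 2779 called genes, which by itself gives them the same sign on both slides. Of all 16882 genes tested, 5351 with a positive and 4772 with a negative difference did not overlap. The slide is the same as the replicate number. With the replicate block in the fit, 5240 genes passed, 2376 higher and 2864 lower, all 2779 among them. Without LF_LF replicate 2 the higher count was 609. Background correction by normexp moved the split to 1459 higher and 1516 lower, and the probe filter that asks for signal on all 4 arrays gave 1230 higher and 1524 lower. With all 8 arrays sharing 1 estimate of the spread, 79 higher and 220 lower genes passed. Of the 239 genes picked for naming, 163 lost their call in that fit and 69 in a fit to the 6 arrays of BD_HF, LF_LF and VAD_VAD. On the 4 arrays 56.5% to 64.2% of probes were well above background, with the lowest share on BD_HF replicate 2. That array had 316 outlier spots, against 69 on BD_HF replicate 1 and 48 and 46 on the LF_LF arrays. Replicates correlated at 0.988 in BD_HF and 0.992 in LF_LF over genes, against 0.952 to 0.961 between groups. The 75th percentile was lower on both BD_HF arrays (229 and 220 intensity units) than on the LF_LF arrays (276 and 281), and its part in the calls was not tested.

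**Figure D1:**
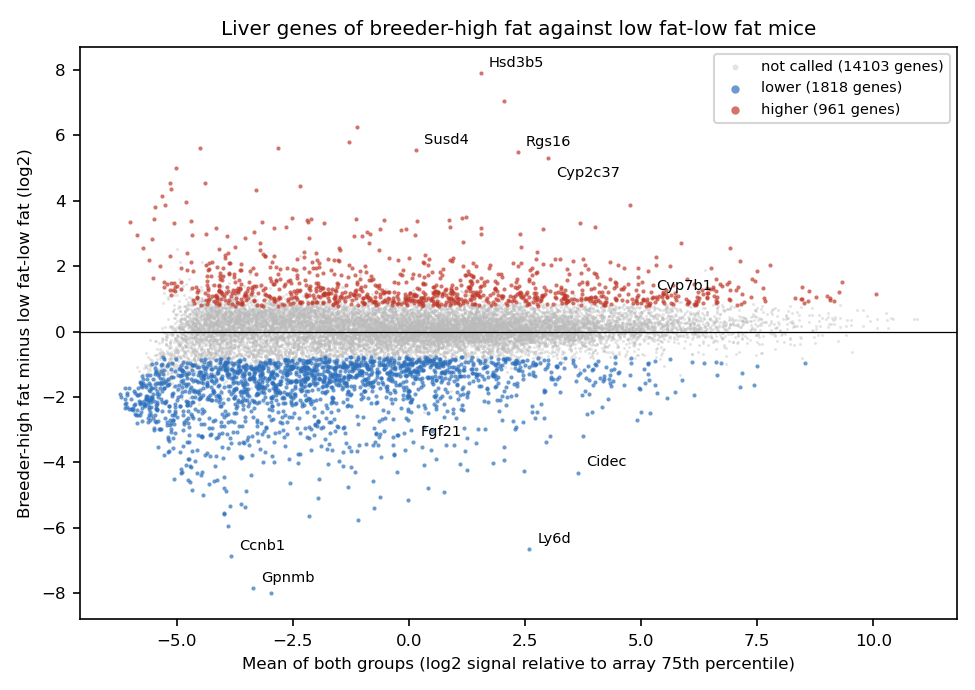
Difference between groups (log2, BD_HF minus LF_LF) against the mean signal of both groups (log2 relative to the array's 75th percentile), 1 point per gene; red genes were called higher, blue lower and grey not called. The 1818 lower genes reach further from 0 at low signal, and Hsd3b5 at 7.90 and Gpnmb at -7.84 lie near the ends.

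The promoters of 3 mitosis genes are shown because nearly the whole mitosis list was lower in BD_HF liver. The CCAAT box, bound by NF-Y, and the sequence TTTGAA, the core of the cell cycle homology region bound by the DREAM complex, are known from promoters of genes used in late cell cycle. The letters are the 250 bases before the transcription start from RefSeq (GRCm38.p6), 5′ to 3′ along the gene, with CCAAT or TTTGAA on either strand in capitals (ATTGG and TTCAAA on the other strand). Ccnb1 lies on the minus strand at chr13:100786487-100786736, Cdc20 on the minus strand at chr4:118437344-118437593, and Hmmr on the minus strand at chr11:40733438-40733687.
Ccnb1: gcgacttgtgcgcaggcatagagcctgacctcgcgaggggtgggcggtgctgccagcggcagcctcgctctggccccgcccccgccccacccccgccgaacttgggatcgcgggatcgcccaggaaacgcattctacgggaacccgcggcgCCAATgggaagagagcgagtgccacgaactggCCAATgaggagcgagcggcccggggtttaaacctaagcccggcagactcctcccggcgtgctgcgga
Cdc20: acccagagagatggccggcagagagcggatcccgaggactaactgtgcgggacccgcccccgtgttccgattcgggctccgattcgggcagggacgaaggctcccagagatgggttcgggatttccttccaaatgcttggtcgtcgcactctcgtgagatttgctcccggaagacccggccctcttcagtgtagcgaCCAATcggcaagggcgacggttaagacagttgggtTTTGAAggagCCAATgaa
Hmmr: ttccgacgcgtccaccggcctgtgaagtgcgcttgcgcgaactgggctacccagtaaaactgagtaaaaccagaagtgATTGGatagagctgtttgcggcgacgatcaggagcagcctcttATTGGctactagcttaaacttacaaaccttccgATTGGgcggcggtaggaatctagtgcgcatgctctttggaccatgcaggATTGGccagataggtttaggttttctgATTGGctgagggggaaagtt
Of the 51 lower mitosis genes, 44 had a promoter in the table. CCAAT was found in 33 of them (75%) and TTTGAA in 19 (43.2%), against 39.7% and 13.6% of the 11519 tested genes with a promoter and 33.8% and 15.99% of all 32851 promoters. Both motifs stood in 17 of the 44 (38.6%), against 5.02% of the tested genes. The 51 are nearly all of the 53 tested members of the list, so these shares describe the list and not its fall. These matches describe letters in the window and were not tested as binding sites.

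Genes of mitosis and the spindle were lower in BD_HF liver almost without exception. Of 53 tested members, 51 fell and 1 rose, with a median difference of -3.15, or -2.84 when dim members are set to their bound. Of the 53, 21 were not well above background on either BD_HF array, against 738 of all 16882 genes. These 21 were tested only through their LF_LF signal, so their fall was largely set by the filter. With normexp background correction, which adds an offset that shrinks differences of dim genes, the median was -0.95. Ccnb1, the cyclin that starts mitosis with CDK1, gave -7.32 and -7.21 on the BD_HF arrays and -0.18 and -0.61 on the LF_LF arrays. It was not well above background on either BD_HF array and was at least 23.6-fold lower (difference -6.87, SE 0.24, limma adjusted p = 0.000169). Its probe lies at chr13:101549634-101549693 in mm9. Cdc20, the activator of the anaphase-promoting complex, was measured in all 4 livers, at -2.66 and -2.52 against 2.79 and 2.33. It fell by 5.15 on the log2 scale, a 35.4-fold difference (SE 0.24, limma adjusted p = 0.000297). The groups did not overlap for either gene, as for every called gene. Mki67, the nuclear antigen of cycling cells, read -2.01 and -1.77 against 2.05 and 1.40 and was 12.3-fold lower, and Ccna2, the cyclin of S and G2 phase, was 15.4-fold lower. Cdkn3, a phosphatase that acts on cyclin-dependent kinases, was 53.8-fold lower, and the spindle proteins Hmmr and Knstrn were at least 13.5-fold and 15.8-fold lower. Ccnf, which encodes a cyclin-like subunit of a ubiquitin ligase, was the member that rose, by 1.18 (SE 0.23), and this call was lost without LF_LF replicate 2. Counts of lower mitosis genes stayed between 48 and 51 when each array was left out, and 26 passed in the fit to all 8 arrays.

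Genes of DNA replication and the G1 to S step moved less uniformly. Of 42 tested members 21 fell and 1 rose, with a median of -0.95, or -0.43 with normexp. Cdkn1a, which encodes the cell cycle inhibitor p21, read -3.16 and -2.95 in BD_HF and 1.76 and 1.28 in LF_LF, a 23.9-fold difference (SE 0.25 on the log2 scale, limma adjusted p = 0.000322). This inhibitor of division was lower in the same livers as the division genes. Ccnd1, the cyclin of G1, was 7.85-fold lower. Tk1, thymidine kinase, was 2.69-fold higher. The calls of Cdkn1a and Ccnd1 were lost in the fit with the VAD_VAD arrays, on which Cdkn1a read 4.16 and -0.03.

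Lipid-associated macrophage genes were lower in BD_HF liver. Of 28 tested members 23 fell and 0 rose, with a median of -1.76, or -1.13 with normexp. Of the 28, 4 were tested only through their LF_LF signal. Gpnmb, a lysosomal glycoprotein of lipid-laden macrophages, read -7.33 and -7.22 in BD_HF, not well above background, and 0.46 and 0.67 in LF_LF. It was at least 46.1-fold lower (difference -7.84, SE 0.21, limma adjusted p = 6.76e-05), from a probe at chr6:49006386-49006445 in mm9. Trem2, the lipid receptor of these macrophages, read -0.37 and -0.13 against 3.14 and 3.15 and was 10.5-fold lower. Itgax, which encodes CD11c, was 10.5-fold lower, Ms4a7 13.5-fold lower, and Mmp12, macrophage elastase, read -6.91 and -6.63, not well above background, against -2.74 and -2.53. The summed signal of the 28 genes was 1677 and 1881 times the 75th percentile in BD_HF and 1809 and 1752 in LF_LF, a sum that includes Apoe, which hepatocytes also express and which did not pass (0.36, SE 0.21). Resident Kupffer cell genes went both ways, with 4 of 22 higher and 5 lower. Cd163, the haemoglobin scavenger receptor, was 7.54-fold higher and Timd4, a receptor for dying cells, 3.73-fold higher, whereas the scavenger receptor Marco was 4.65-fold lower. The count of lower Kupffer genes was 2 without BD_HF replicate 1, 2 without LF_LF replicate 1 and 1 without LF_LF replicate 2.

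Genes that recruit and present to immune cells were lower in part. Of 28 chemokine and receptor genes 17 fell and 2 rose, with a median of -1.66, or -0.43 with normexp. The rising count was 1 without any 1 of the 4 arrays. Ccl2, which draws monocytes, was 6.00-fold lower, Ccl4 7.68-fold lower, and Cx3cl1 and its receptor Cx3cr1 were 9.32-fold and 9.42-fold lower. MHC class II genes fell in 8 of 13 cases and rose in 0. Cd74, the invariant chain, read 3.53 and 3.76 against 5.13 and 5.18. The count of lower class II genes was 5 without LF_LF replicate 1. Interferon response genes fell in 11 of 33 cases and rose in 2, with 6 or 7 falling when any 1 array was left out, and 3 rising without BD_HF replicate 1 and 0 without any other. Of the NKG2D ligand list 3 of 4 fell, among them Raet1e at 19.8-fold, although Raet1 copies are near identical and the member is uncertain. Neutrophil genes fell in 5 of 12 cases, a count that moved when single arrays were left out. Their median of -1.01 shrank to -0.01 under another choice of background or scaling. Lymphocyte genes fell in 3 of 23 (13.04%), near the 10.8% over all genes, with a median of -0.40 that turned to 0.05 with normexp. Of these last lists, Camp, Elane, Eomes, Ncr1 and Pax5 were not well above background on any of the 4 arrays.

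Collagens and matrix genes were lower in BD_HF liver. Of 20 collagen genes 15 fell and 2 rose, with a median of -1.32. Col1a1, a chain of the main fibrillar collagen of scars, read -1.29 and -0.56 in BD_HF and 3.30 and 2.94 in LF_LF. It was 16.5-fold lower (difference -4.04, SE 0.30, limma adjusted p = 0.000728), with all 3 of its probes in the same direction. Col3a1, another fibrillar chain, was 10.3-fold lower and Col5a2 9.31-fold lower. Col27a1 was the larger of the 2 that rose, at 5.57-fold, and Col13a1 rose by 0.89 but lost its call without BD_HF replicate 2 and without either LF_LF array. Of 40 other matrix genes 26 fell and 1, Fn1, rose, and 7 of the 40 were tested only through their LF_LF signal. Fn1 encodes fibronectin, which hepatocytes secrete, and its call was lost without either BD_HF array and without LF_LF replicate 2. Mmp13, a collagenase, was at least 5.08-fold lower, a call lost with normexp, and Mfap4 and Fbln1, proteins of elastic fibres and basement membranes, were 8.64-fold and 8.31-fold lower.

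Markers of the cells that make or line this matrix were lower in part. Stellate cell and fibroblast markers fell in 12 of 21 cases and rose in 0, Pdgfrb, the PDGF receptor of stellate cells, by 4.80-fold and Cd34 by 12.3-fold. The other 9 did not pass, among them Lrat (-0.0009, SE 0.34). Bile duct and progenitor markers fell in 13 of 18 cases and rose in 0. Bicc1 read 0.87 and 0.95 against 3.13 and 2.86, and the summed signal of that list was 182 and 227 in BD_HF against 480 and 431 in LF_LF. For stellate markers the sums overlapped, at 105 and 143 against 133 and 121. Sinusoidal endothelial markers fell in 0 of 25 cases and rose in 2 (8%, against 5.69% over all genes). That count moved when single arrays were left out. Hepatocyte markers rose in 3 of 18 and fell in 1, though 1 rose without BD_HF replicate 2 or either LF_LF array and 0 fell without BD_HF replicate 1 or either LF_LF array. Their sums were 6439 and 7100 against 4907 and 4670. The part of these cell-type shifts in the other results was not tested. Of the TGF-beta and BMP list 9 of 33 fell and 1 rose. Bmp8b was at least 16.4-fold lower, Bmper, a BMP-binding protein, 10.8-fold lower and Tgfb2 4.46-fold lower. Imprinted and fetal liver genes fell in 11 of 20 cases and rose in 1, with H19 at 7.28-fold and alpha-fetoprotein, Afp, at 5.30-fold lower. Their median of -1.30 shrank to -0.23 under another choice of background or scaling. Of the 20, 3 were not well above background on either BD_HF array and were tested only through their LF_LF signal.

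**Figure D2:**
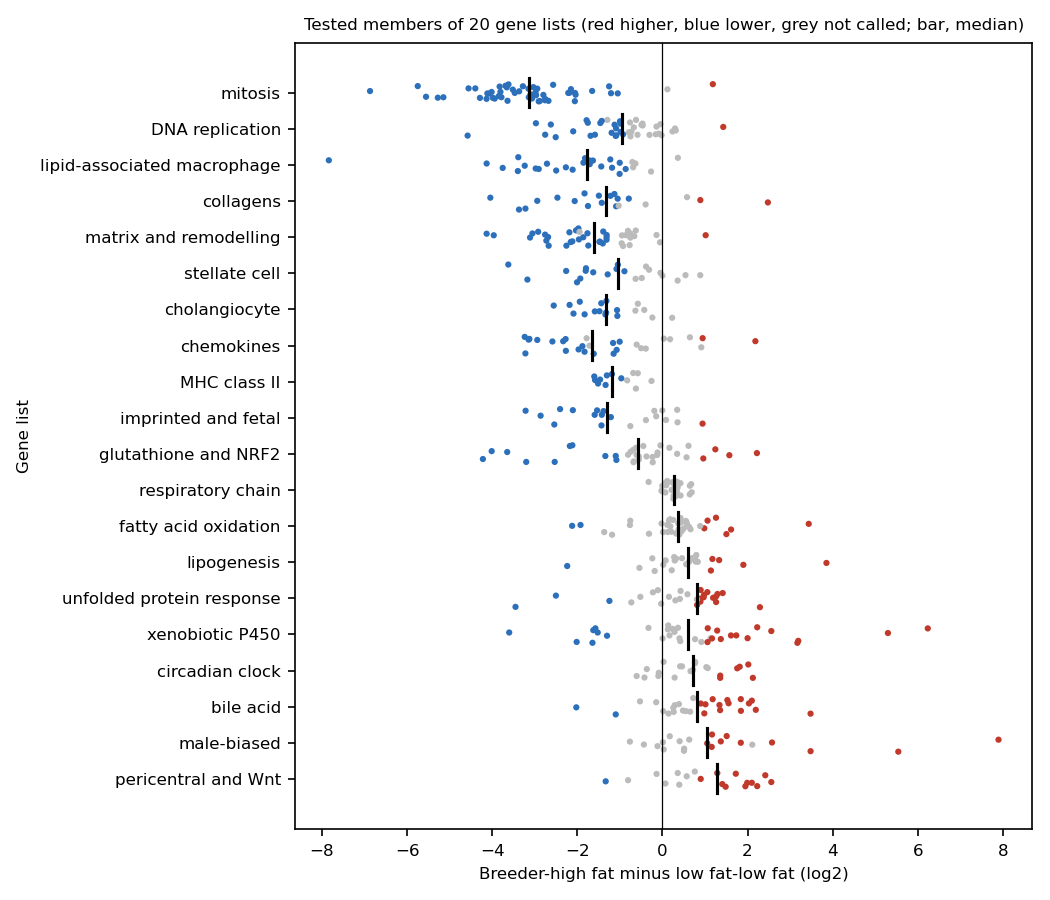
Difference between groups (log2, BD_HF minus LF_LF) for the tested members of 20 gene lists; each point is a gene, red called higher, blue called lower, grey not called, and the bar is the median. Mitosis genes centre on -3.15 (-0.95 with normexp), and pericentral genes on 1.29.

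The gene with the largest rise of all belonged to the male-biased list. Of 21 tested members 10 rose, 0 fell and 11 did not pass, with a median of 1.05, or 0.39 with normexp and quantiles, and 8 to 10 rose when each array was left out. Hsd3b5, a hepatic steroid reductase of the 3-beta-hydroxysteroid dehydrogenase family, read 5.52 and 5.47 in BD_HF and -2.39 and -2.42 in LF_LF. That is a 238-fold difference (7.90, SE 0.20, limma adjusted p = 6.76e-05), from a probe at chr3:98422848-98422907 in mm9. Hsd3b4 gave 131-fold, and since the Hsd3b genes are near identical the 2 probes may share signal. Susd4, a complement regulator, read 2.95 and 2.89 against -2.99 and -2.26 and was 46.6-fold higher. Slco1a1, an organic anion carrier, was 11.2-fold higher and Cyp7b1, an oxysterol hydroxylase, 3.58-fold higher. Moxd1 read -2.46 and -4.34 in BD_HF and was not well above background in LF_LF, and it did not pass (limma adjusted p = 0.055). Female-biased genes went both ways, 5 higher and 6 lower of 19 (3 higher without either BD_HF array), with Ntrk2 5.31-fold lower and Cyp2g1 3.33-fold higher, a call lost without BD_HF replicate 2 and in the fit with the VAD_VAD arrays. On the growth hormone axis 4 of 18 rose and 1 fell, Bcl6, a repressor in this pathway, at 5.96-fold and Igfals at 3.01-fold. The motif TTCNNNGAA, which STAT5 binds, was found in 1 of the 7 higher male-biased genes with a promoter (14.3%), against 7.26% of tested genes.

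Among drug, steroid and bile acid enzymes, genes went both ways. Of 34 P450 and related genes 14 rose and 7 fell. Cyp2c37 read 5.44 and 5.85 in BD_HF and 0.48 and 0.20 in LF_LF, a 39.4-fold difference (5.30, SE 0.25, limma adjusted p = 0.000297). Cyp2c54 was 75.3-fold and Cyp2c39 9.13-fold higher, although Cyp2c probes can read more than 1 family member. Nr1i3, the xenobiotic receptor CAR, was 9.01-fold higher, whereas Cyp1b1 fell to below background and was at least 9.86-fold lower. Of 28 bile acid genes 14 rose and 2 fell, with 9 rising without BD_HF replicate 2 and 9 without LF_LF replicate 1. Cyp27a1, the sterol 27-hydroxylase, was 4.29-fold and Akr1d1, the steroid 5-beta-reductase, 4.57-fold higher. Cyp7a1, the rate-limiting enzyme of bile acid synthesis, read 2.34 and 2.52 against 2.56 and 2.26, with overlap. Sulfotransferases rose in 6 of 7 cases, Sult1b1 at 3.47-fold, though 4 rose without BD_HF replicate 2 and 2 without LF_LF replicate 1. Glutathione and NRF2 genes were lower in 10 of 34 cases and higher in 4, or 2 without BD_HF replicate 2 or LF_LF replicate 1. Gsta1 and Gsta2, near-identical glutathione transferases, were 9.20-fold and 16.1-fold lower and Cbr3, a carbonyl reductase, 18.6-fold lower.

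Genes of the pericentral zone were higher. Of 19 tested members 11 rose and 1 fell, with a median of 1.29. Glul, glutamine synthetase, read 6.57 and 6.66 in BD_HF and 4.22 and 5.03 in LF_LF, a 3.98-fold difference (SE 0.30 on the log2 scale, limma adjusted p = 0.00766). Cyp2e1 was 5.89-fold, Cyp1a2 4.68-fold and the glutamate carrier Slc1a2 5.34-fold higher. Of 13 periportal genes 5 fell and 1 rose, among them Sds, serine dehydratase, at 3.12-fold lower, and Cdh1, E-cadherin, at 2.95-fold lower.

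**Figure D3:**
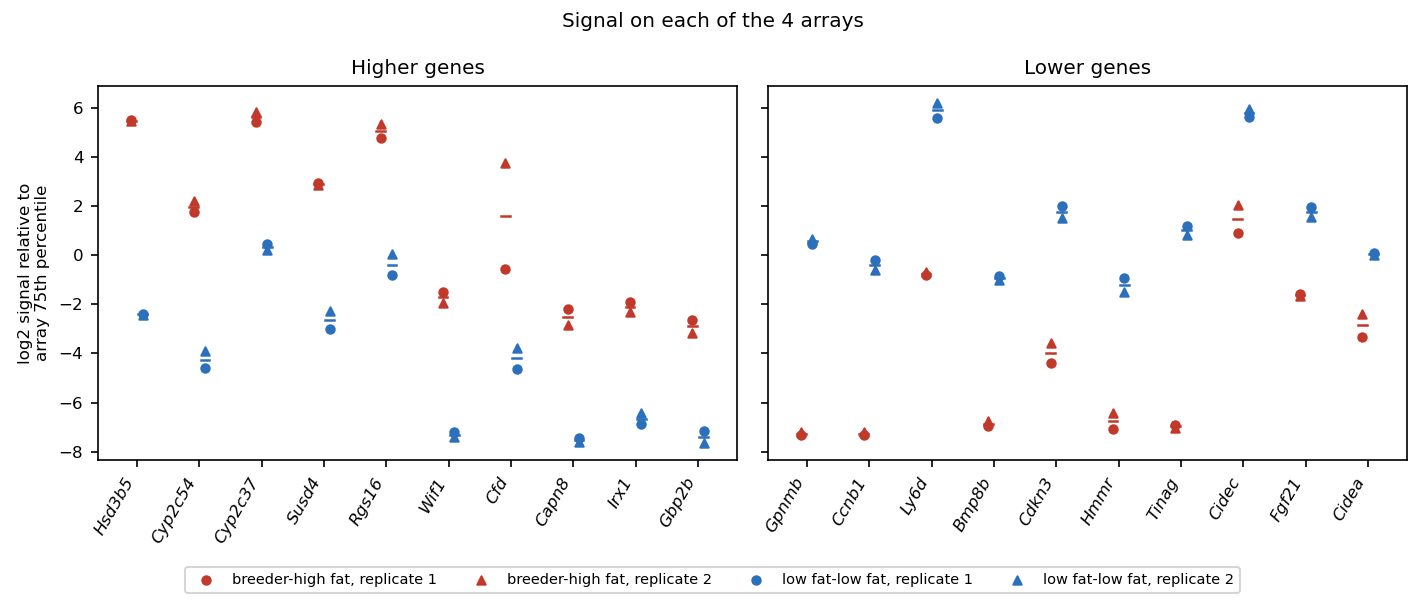
Signal (log2 relative to the array's 75th percentile) of 10 higher and 10 lower genes on the 2 BD_HF arrays (red) and the 2 LF_LF arrays (blue); circles are replicate 1, triangles replicate 2 and bars the group mean. All were picked from the called genes, none of which overlaps between groups, so the lack of overlap here follows from the choice. The BD_HF replicates of Cfd lie apart at -0.55 and 3.77.

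Fat-handling genes did not move in 1 direction. Lipid droplet genes fell in 5 of 20 cases and rose in 1, with 3 falling without BD_HF replicate 1 or LF_LF replicate 2, and 2 rising without BD_HF replicate 1 and 0 without BD_HF replicate 2. Cidec, which fuses lipid droplets, read 0.91 and 2.06 in BD_HF and 5.64 and 5.95 in LF_LF and was 19.8-fold lower in BD_HF (difference -4.31, SE 0.39, limma adjusted p = 0.00123). Cidea was 7.52-fold lower and Plin4 5.14-fold lower, and the droplet coat gene Plin2 did not pass (-0.53, SE 0.23). Cd36, the fatty acid carrier, was 2.74-fold lower and Lpl, lipoprotein lipase, 7.88-fold lower. Of 24 lipogenesis genes 5 rose and 1, Scd2, fell, with 9 rising without BD_HF replicate 1 and 3 without LF_LF replicate 1. Thrsp, a lipogenic regulator, was 14.5-fold and Dgat2, which makes triglyceride, 2.52-fold higher, while Fasn (0.78, SE 0.28) and Scd1 (0.46, SE 0.29) did not pass. Of 26 cholesterol synthesis genes 3 rose, with 7 without BD_HF replicate 1 and 0 without BD_HF replicate 2 or LF_LF replicate 2. The median of that list was -0.11 on slide 1 and 1.10 on slide 2. Of 37 fatty acid oxidation genes 6 rose and 2 fell, or 5 without BD_HF replicate 2. Ppara, the fatty acid receptor PPAR-alpha, was 2.83-fold and Acsl1, which activates fatty acids, 2.39-fold higher, whereas Cyp4a14, a target of this receptor, was 3.80-fold lower. The calls of Cidec and Cyp4a14 were lost in the fit with the VAD_VAD arrays, and those of Ppara and Cyp4a14 without the filter on dim probes. The respiratory chain list held 0 called genes of 31 by limma (4 at an unadjusted p under 0.05, and 2 called without BD_HF replicate 1), with a median of 0.28 (0.09 with normexp and quantiles), and 4 passed with the replicate block.

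Among secreted, glucose and stress genes, some rose and some fell. Fgf21, a hormone of the fasted or stressed liver, read -1.56 and -1.65 in BD_HF and 1.97 and 1.57 in LF_LF and was 10.4-fold lower (difference -3.37, SE 0.23, limma adjusted p = 0.000628). Gdf15, a stress hormone, was 4.36-fold lower. Rgs16, a regulator of G-protein signalling, was 44.3-fold higher, at 4.79 and 5.37 against -0.82 and 0.04. Of 24 glucose genes 9 rose and 0 fell, with 5 rising without BD_HF replicate 2 and 5 without LF_LF replicate 1. Pklr, pyruvate kinase, was 3.74-fold higher, and G6pc did not pass (-0.30, SE 0.28). Clock genes rose in 6 of 21 cases and fell in 0, with Hlf, a clock output factor, 3.38-fold higher. In the fit with the VAD_VAD arrays 3 clock genes rose, and in the fit to all 8 arrays 1 rose. Among the 6, Cry1 was not well above background on either LF_LF array and was tested only through its BD_HF signal. Of 27 unfolded protein response genes 13 rose and 3 fell, the latter 11.1%, near the 10.8% over all genes. The risers included Creld2, a chaperone-like protein of the endoplasmic reticulum, at 4.89-fold, and the fallers Atf3 and Asns, of the amino acid response, at 10.9-fold and 5.67-fold. The count of risers was 8 without either BD_HF array, 5 without LF_LF replicate 1 and 4 without LF_LF replicate 2. Retinoid genes fell in 6 of 33 cases and rose in 2 (6.06%, near the 5.69% over all genes). With each array left out, 3 to 7 fell and 1 to 5 rose, the fewest falling without LF_LF replicate 1 and the most rising without BD_HF replicate 1. Cyp26a1, which clears retinoic acid, read -0.48 and 2.00 in BD_HF against 0.66 and 1.02, and Lrat, which esterifies retinol, read 0.47 and 1.30 against 1.16 and 0.61. Both overlapped between groups.

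The other diet groups give the levels against which these values stand, without a test. For Cdc20 the LF_HF arrays read -3.18 and -2.43 and the VAD_VAD arrays -2.14 and -1.62, all below both LF_LF arrays. The same held for Col1a1, at -1.50 and -1.67 in LF_HF and -0.36 and -1.06 in VAD_VAD, and for Trem2, at -0.49 and -0.71 and at -0.01 and 0.71. For these 3 genes the LF_LF arrays were the 2 highest of the 8. Hsd3b5 read 5.49 and 6.18 in LF_HF and 1.18 and 4.37 in VAD_VAD, so LF_LF held the 2 lowest values. Susd4 read 2.61 and 3.58 in LF_HF and 0.80 and 0.76 in VAD_VAD. Both VAD_VAD values and that of LF_HF replicate 1 lay between the BD_HF and LF_LF arrays. Cidec read 6.47 and 1.57 on the VAD_VAD arrays, so 1 of them lay above and 1 below both LF_LF arrays. LF_HF replicate 1 has a raised background, with 82.2% of probes called above it and 2707 outlier spots against 46 to 316 on the other arrays. Its values of dim genes such as Ccnb1 (-2.40, against -7.14 on the other LF_HF array) therefore stand apart.

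**Figure D4:**
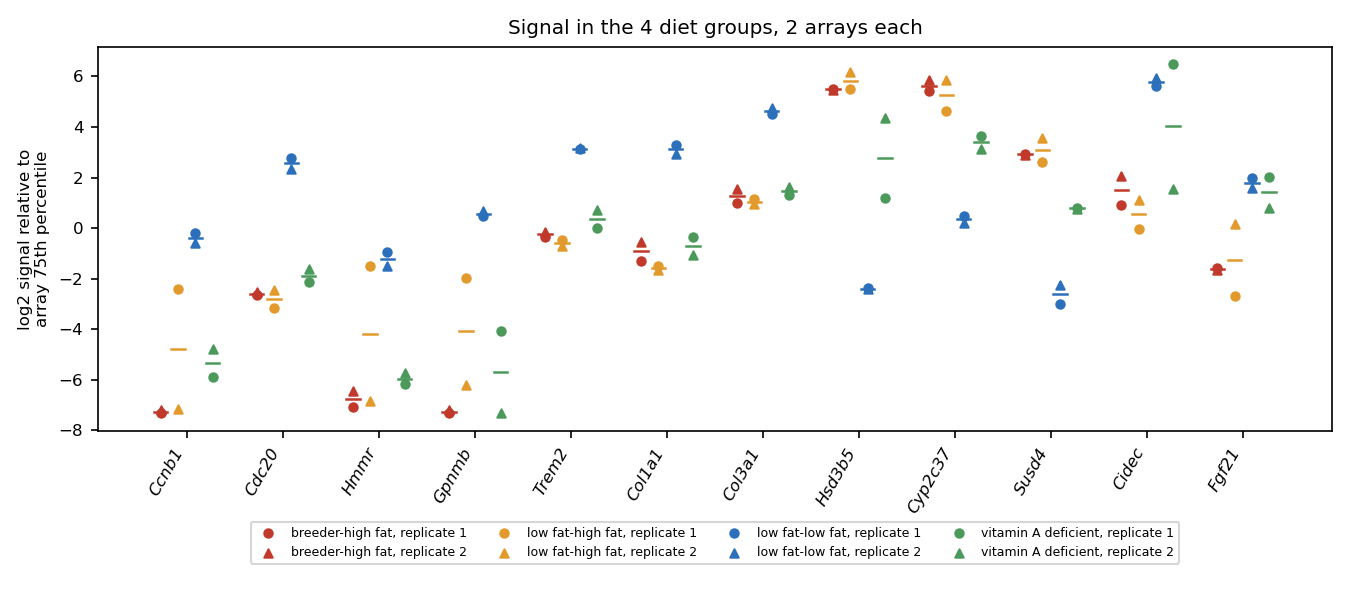
Signal (log2 relative to the array's 75th percentile) of 12 genes on all 8 arrays, 2 per diet group; circles are replicate 1, triangles replicate 2 and bars the group mean. Cdc20, Trem2, Col1a1 and Col3a1 are highest on the 2 LF_LF arrays and Hsd3b5 is lowest there; LF_HF replicate 1 has a raised background.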

How the data were processed

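Liver RNA was labelled with Cy3 and hybridised to single-colour Agilent arrays of design 014868. The file headers name Feature Extraction 10.7.3.1 as the image software. The deposited processed signal is a linear intensity, detrended and background-handled, with no scaling between arrays recorded, per the file headers. In the submitters' processing notes limma is listed with no role. The deposited series values held the same intensity, rounded (largest relative difference 0.497%), linear and uncentred, with column medians of 26.3, 19.7, 30.8 and 29.2 on the BD_HF and LF_LF arrays.

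Outlier spots were left out, spots of a probe averaged, log2 taken and each array's 75th percentile subtracted. Of 41174 gene probes, 82.49% were given a symbol from RefSeq genes of GRCm38.p6; probe positions are mm9. A probe was kept if either group had it well above background on its 2 arrays and all 4 arrays had a value (25606 probes), and the brightest represented each gene; 88 genes were lost to outlier spots. Groups were compared with limma 3.58.1 in R 4.3.3 (2 residual and 4.50 prior degrees of freedom), checked on simulated data; data.table (version 1.17.8), jsonlite 2.0.0 and, for plots, Python 3.11.15, matplotlib 3.10.9, pandas 2.3.3 and numpy 2.4.6 were used. The number of arrays limits the precision. Named were the 12 largest called differences per direction, without overlap between groups and without provisional names. Added to them were up to 4 called members per list and direction by p, and a list of index genes. The text describes part of the 239 genes so picked, and the others are not reported here. The groups and 47 gene lists were chosen with earlier results of these data known. File headers place replicate 1 of every group on slide 1 and replicate 2 on slide 2, so the numbers pair arrays by slide; replicate deviations of the groups correlated at 0.293. Alternatives covered the arrays in the fit, background, scaling, filter, probe choice, variance, block and each array left out.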

Additional observations from a re-analysis of the deposited data

How the results depend on the processing

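Of the 961 higher and 1818 lower genes, 79 and 220 passed in the fit to all 8 arrays, where LF_HF replicate 1 enters the shared spread. The fits to 7 arrays (without that array) and to 6 arrays (without LF_HF) gave the same 480 and 1204, since a lone array adds no spread. With no filter on dim probes, and 27107 genes tested, 398 and 1044 passed. Normexp with the 75th percentile gave 1459 higher genes, trend and robust variances 1643, and the replicate block, which is also the slide block, 2376 higher and 2864 lower. Leaving out each array gave 609 to 1023 higher and 1384 to 1961 lower genes; with 1 array left in a group, that array is assumed to vary like the other group. Quantile scaling, the series table, centring on the median gene, the stricter filter and the mean of probes kept both counts within 1.5 times. Of 239 named genes, 163 lost their call with all 8 arrays and 69 with 6. Signs turned under normexp with the 75th percentile for Acta1 (0.233), E2f7 (0.0737), Il7r (0.0486) and Retnlg (0.0210), under normexp with quantiles for Acta1 (0.0156) and Cyp7a1 (-0.0360), under quantile scaling for Cyp7a1 (-0.0490) and under centring on the median gene for Lrat (0.0615); the cause was not tested. With each array left out in turn, the differences of 5 genes that were not called spanned 0: Cyp26a1 from -1.32 to 1.16, Lrat from -0.416 to 0.414, Sqle from -0.312 to 1.07, Cyp7a1 from -0.130 to 0.165 and G6pc from -0.639 to 0.0390. The replicate block ended no call among the named genes. Dim genes, with signal near background in 1 group, have only bounds.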

Other observations

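Of the genes below, Ly6d, Tinag, Wif1 and Irx1 fall outside the gene lists, and the others belong to them. Ly6d, a surface protein of the Ly6 family, read -0.79 and -0.69 in BD_HF and 5.60 and 6.21 in LF_LF, a 100.2-fold difference by limma (-6.65, SE 0.27). Tinag, a basement membrane protein, was not well above background on either BD_HF array and was at least 63.3-fold lower. Wif1, a secreted Wnt inhibitor, and Irx1, a homeobox factor, were not well above background in LF_LF and were at least 13.5-fold and 10.3-fold higher in BD_HF. Hepcidin genes went opposite ways, with Hamp 3.23-fold lower (a call lost in the fit with the VAD_VAD arrays) and Hamp2 9.23-fold higher, though these paralogs are close in sequence. Erythroid genes rose in 5 of 9 cases, with 2 or 3 rising when any 1 array was left out. Cfd, adipsin, was 55.7-fold higher, but its call was lost in 4 alternatives, and its BD_HF replicates read -0.55 and 3.77, while Adipoq, Adrb3, Retn and Slc7a10 of the same adipocyte list were not well above background on any of the 4 arrays.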
